A study of Mus musculus with 18 samples.

Results

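The comparison described here is the interaction of T-N1G with 1.0 µM MG132: for each gene, the change from vehicle to 1.0 µM MG132 in T-N1G cells minus the same change in mock cells. Its members were chosen by label alone. They are the 12 libraries, of 18 in the series, from the 4 groups of 2 lines and 2 treatments, and 13258 of the 24318 genes in the table had enough fragments to be tested. All cells were immortalized mouse embryonic fibroblasts of the genotype MafF-/-::MafG-/-::MafK-/-, so the controls lack all small Maf genes too. Mock cells carry that genotype alone, and T-N1G cells also express the tethered Nrf1-MafG heterodimer. Both lines were kept for 12 h with vehicle or with MG132, an inhibitor of the proteasome, at 1.0 µM, and polyadenylated RNA was sequenced in 3 libraries per group. The sources used here do not give whether the T-N1G line is 1 clone or a pool, what promoter drives the construct, or what the mock cells received in its place. They do not say either that the 3 libraries of a group are separate cultures, so the p-values rest on a spread between libraries that may be technical.

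Nrf1, encoded by Nfe2l1, is a transcription factor of the cap'n'collar (CNC) family that is made in the endoplasmic reticulum membrane. It is drawn out by the ATPase p97, deglycosylated, cleaved, and in most conditions destroyed by the proteasome. When the proteasome is inhibited the processed factor enters the nucleus, where it pairs with a small Maf protein such as MafG and binds antioxidant response elements in DNA. Genes of the proteasome itself are its best known targets, a relation often called the bounce-back response, and antioxidant genes share the same elements through the related factor Nrf2. Cells without small Maf proteins lack the usual partner of both factors. MG132 is a peptide aldehyde that blocks the proteolytic sites of the proteasome.

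The 12 libraries held 18164382 to 21196909 fragments each. Libraries of 1 group differed more from each other under MG132 than under vehicle. For mock cells the median SD of log2 CPM within a group was 0.0543 under vehicle and 0.156 at 1.0 µM, and with T-N1G it was 0.0686 and 0.186. The number 2 libraries of both lines stood nearest to vehicle at 1.0 µM on the first principal component, which carried 54.6% of the variance. Fibroblast genes were abundant, with 189705 fragments of Col1a2 and 189996 of Vim over the mock vehicle libraries, whereas Lum had 1 fragment there and Dcn 290. Summed levels of the other marker lists moved with the groups. The 8 epithelial markers summed to 205 to 212 CPM in mock cells under vehicle and 334 to 484 at 1.0 µM, and to 94.6 to 98.8 and 57.2 to 82.3 in T-N1G cells, most of it Krt19, with Epcam at 0 to 15 fragments per group. Krt8 went from 17 to 472 fragments per group in mock and from 39 to 128 in T-N1G cells. Cdh1 went from 37 to 49 in mock and from 96 to 70 in T-N1G cells. The 7 endothelial markers summed to at most 6.90 CPM under vehicle and, at 1.0 µM, to 64.6 to 87.4 in mock cells and 25.6 to 41 with T-N1G, mostly Kdr, with Tie1 at 0 or 1 fragment. Pecam1 went from 13 to 10 fragments per group in mock and from 7 to 56 in T-N1G cells. Tek went from 37 to 17 in mock and from 90 to 43 in T-N1G cells. The 8 leukocyte markers summed to 7.71 to 8.56 CPM in mock cells under vehicle and 10.5 to 13 at 1.0 µM, and to 5.80 to 7.18 and 16.2 to 20.02 in T-N1G cells, with Cd3e at 0 to 3 fragments per group. Csf1r went from 8 to 27 fragments per group in mock and from 10 to 221 in T-N1G cells. Ptprc went from 1 to 31 in mock and from 2 to 39 in T-N1G cells, and Lyz2 from 7 to 2 and from 10 to 9. The 8 muscle and fat markers summed to 23.1 to 27.7 CPM in mock cells under vehicle and 12.3 to 16.5 at 1.0 µM, and to 26.8 to 34 and 12.7 to 17.5 in T-N1G cells, with Myog, Adipoq and Plin1 at 0 to 3 fragments. The part of these shifts in the results was not tested.

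The 2 lines responded differently to 1.0 µM MG132 in 45% of the genes tested, in similar numbers upward and downward after scaling. By the quasi-likelihood F test of edgeR, at a Benjamini-Hochberg adjusted p under 0.05, the interaction was called in 5964 of 13258 genes. In 3038 of them (22.9%) the T-N1G response lay above the mock response, and in 2926 (22.1%) it lay below. The difference was 2-fold or more in 1051 genes above (7.93%) and 955 below (7.2%). Over all genes the median log2 interaction was -0.02. The scaling between libraries (TMM) tends to set such a centre, and with it the balance of the 2 directions. Over the alternative analyses 44.4% to 52.8% of calls lay above mock, against 50.9% in the main one. A log2 interaction of 1 means that the ratio of 1.0 µM to vehicle is 2 times as large in T-N1G as in mock cells, and ± is the standard error of that difference throughout.

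The 2 responses combined in several ways. Of the 3038 genes above mock, 494 rose in T-N1G cells and fell in mock cells, 851 rose in T-N1G cells with no call in mock, and 858 rose in both but further with T-N1G. A further 481 fell in mock with no call in T-N1G cells, 329 fell in both but less with T-N1G, and 25 were called in neither line. Of the 2926 genes below mock, 1061 fell in both lines but further with T-N1G, and 762 fell in T-N1G cells with no call in mock. Another 286 rose in mock but fell in T-N1G cells, 462 rose in mock with no call in T-N1G cells, 327 rose in both but less with T-N1G, and 28 were called in neither. These classes set side by side 2 calls from 1 fit, in which 69.7% of genes were called in the mock response and 76.4% in the T-N1G response. Under vehicle, 2532 of the 3038 and 2192 of the 2926 were not called between the lines, where 16.1% of all genes were called. At 1.0 µM, 2817 of the 3038 were higher in T-N1G cells and 2580 of the 2926 lower, where 30.7% of all genes were called higher and 31.3% lower, 61.9% in all. The plot of the 2 responses shows 32 of the 33 proteasome subunits above the diagonal.

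**Figure D1:**
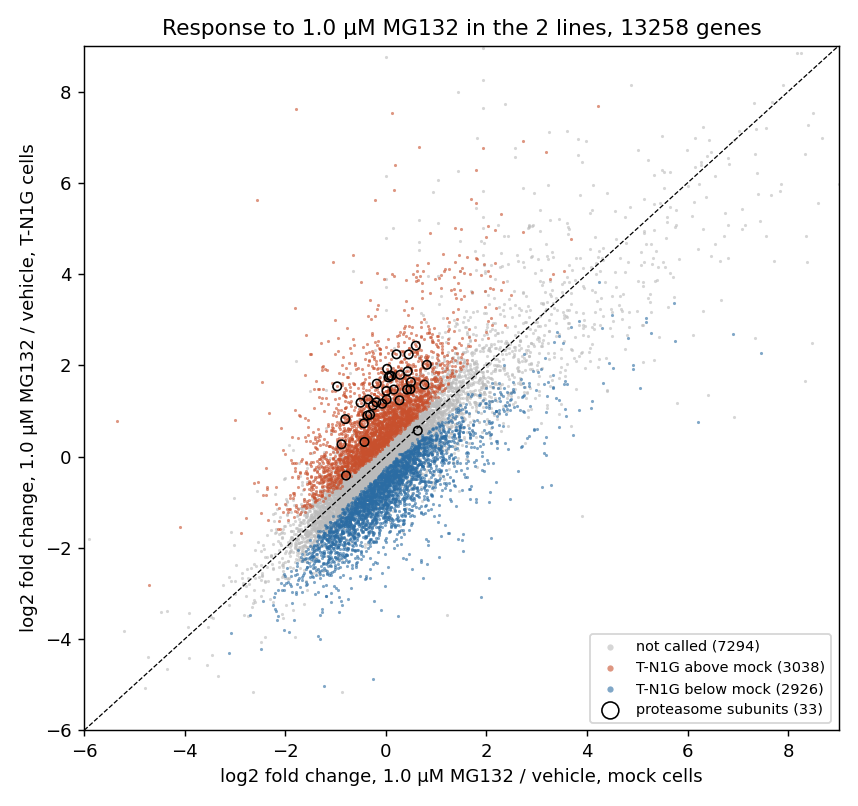
Each point is 1 of 13258 genes, placed by its log2 fold change from vehicle to 1.0 µM MG132 in mock cells (x axis) and in T-N1G cells (y axis), and coloured by the call of the interaction; open circles are the 33 proteasome subunits and the dashed line marks equal responses. The 3038 genes above mock and the 2926 below lie on either side of the line, and 8 genes fall outside the axes.

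The targeted genes came first. Nfe2l1 (chr11:96678727-96691282, build mm9, as deposited) stood at 287, 280.2 and 273 CPM (the usual depth-scaled count of RNA-seq, here with TMM factors) in the mock libraries under vehicle and at 322, 294 and 329 at 1.0 µM. In T-N1G cells it stood at 1169, 1115 and 1022 CPM under vehicle and at 21501, 14845 and 14686 at 1.0 µM, with no overlap between the lines. Its log2 interaction was 3.78 ± 0.18 (adjusted p = 7.9e-11), a 13.7-fold larger ratio. Reads of the construct and of the cells' own gene cannot be told apart in a count per gene, and Nfe2l1 is 1 of 20 genes whose FPKM estimate failed upstream while its fragments were counted. Mafg, deleted in the genome and present in the construct, had 6, 9 and 8 fragments in mock cells under vehicle and 17, 25 and 21 at 1.0 µM. In T-N1G cells it stood at 172, 162 and 142 CPM and then at 4238, 2933 and 2701, a log2 rise of 4.37. Its log2 interaction was 2.76 ± 0.50 (adjusted p = 0.000238), measured against these few mock fragments. Nfe2l1 and Mafg together took 0.122% to 0.140% of all fragments in T-N1G cells under vehicle and 1.68% to 2.31% at 1.0 µM. RNA of the construct's genes thus rose with the inhibitor itself, and its part in the other interactions was not tested. Maff and Mafk, whose deleted part the labels do not give, rose in both lines, by 3.50 in mock cells and 3.61 with T-N1G for Maff and 2.33 in mock cells and 2.13 with T-N1G for Mafk on the log2 scale, with interactions of 0.10 ± 0.29 (adjusted p = 0.798) and -0.20 ± 0.29 (adjusted p = 0.602). Of the 9 tested genes of the CNC, small Maf and BACH family 4 were above mock, Nfe2l1 and Mafg among them, and none below. That stood against 22.9% and 22.1% of all genes, and the median log2 interaction of the 9 was 0.10. Besides the construct's genes, Nfe2l2, which encodes Nrf2, had a log2 interaction of 0.61 ± 0.20 (adjusted p = 0.0177), a call lost in 5 of 20 alternative analyses. Keap1, the adaptor that marks Nrf2 for destruction, fell in mock cells from 60.4, 61.3 and 64.7 to 19.8, 25.6 and 27.2 CPM and rose in T-N1G cells from 84.9, 84 and 81.6 to 111, 107 and 120.5 CPM, an interaction of 1.79 ± 0.13 (adjusted p = 5.42e-09).

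The genes of the proteasome responded far more in T-N1G cells. Of 33 subunits of the 20S core and the 19S regulatory particle, 31 were called above mock and none below, against 22.9% and 22.1% of all genes, with a median log2 interaction of 1.38 against -0.02 over all genes. In T-N1G cells 32 of the 33 rose and none fell, with 37.5% of all genes called higher and 38.9% lower. In mock cells 12 rose, 11 fell and 10 were not called, with 32.4% of all genes called higher and 37.4% lower. Under vehicle 9 of the 33 were already higher in T-N1G cells, and none was lower, where 8.43% of all genes were called higher and 7.72% lower. The 2 exceptions in the interaction were both lid genes: Psmd8 at -0.07 ± 0.22 and Shfm1 at 0.38 ± 0.27 (adjusted p = 0.835 and 0.277). Without T-N1G library 1 at 1.0 µM, which was the highest of its group for all 33 subunits, the median of the 33 was 1.20.

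**Figure D2:**
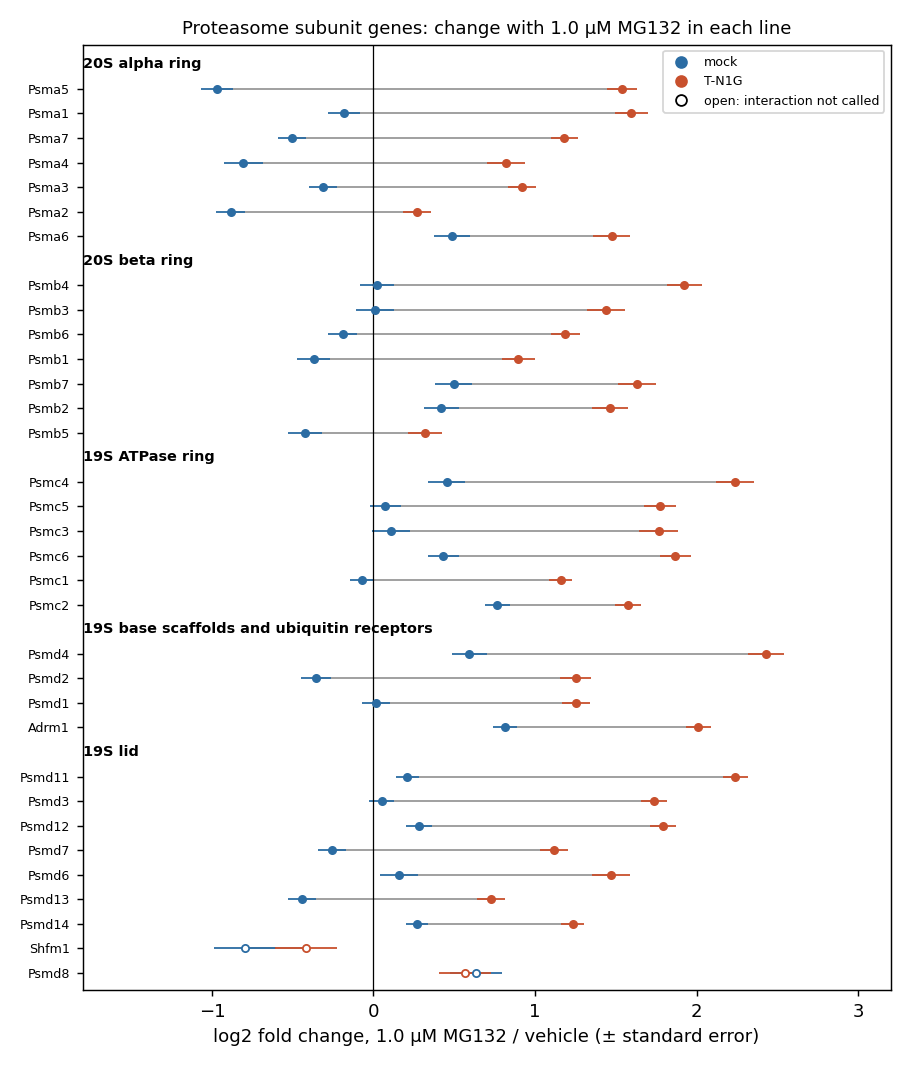
Log2 fold change from vehicle to 1.0 µM MG132, with its standard error, for the 33 proteasome subunit genes in mock (blue) and T-N1G cells (orange), 3 libraries a group, by ring and in order of the interaction. The T-N1G point lies to the right of the mock point in 32 of the 33 genes, and the open points mark Psmd8 and Shfm1, which were not called.

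The alpha ring closes the ends of the 20S cylinder and gates entry to it. All 7 alpha genes were above mock, with a median log2 interaction of 1.63, and 5 of them fell in mock cells. Psma5 (chr3:108059843-108082870, mm9) had the largest interaction of the 33 subunits. It stood at 64.9, 71.2 and 66.2 CPM in mock cells under vehicle and at 32.7, 35.6 and 35 at 1.0 µM, and at 90.7, 107 and 96.2 and then 337, 256 and 260.4 in T-N1G cells. Mock cells lost Psma5 RNA and T-N1G cells gained it, with no overlap between groups, and the log2 interaction was 2.51 ± 0.14 (adjusted p = 2.56e-10). Psma1 rose from 150.0, 154 and 148 to 558, 418 and 393 CPM in T-N1G cells, where mock cells stood at 102, 112 and 106 and then 94.7, 99 and 87.7, which was not called (log2 interaction 1.78 ± 0.14, adjusted p = 1.99e-08). The other interactions were 1.68 ± 0.12 for Psma7, 1.63 ± 0.17 for Psma4, 1.23 ± 0.12 for Psma3, 1.15 ± 0.13 for Psma2 and 0.99 ± 0.16 for Psma6. Psma6 was the only alpha gene that rose in mock cells too, by 0.49.

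The beta ring carries the proteolytic sites, in Psmb5, Psmb6 and Psmb7. All 7 beta genes were above mock, with a median of 1.27. Psmb4, a structural subunit, was not called in mock cells, at 96.6, 106 and 100.3 CPM under vehicle and 111, 103 and 95 at 1.0 µM, and rose in T-N1G cells from 119, 124 and 118 to 565, 411 and 393 (log2 interaction 1.90 ± 0.15, adjusted p = 2e-08). Psmb5 encodes the chymotrypsin-like site that MG132 blocks best, and it had the smallest interaction of the ring. It fell from 86.3, 92.9 and 87.6 to 70.3, 72.3 and 56 CPM in mock cells and rose from 90.2, 102 and 88.3 to 138, 112 and 100.1 in T-N1G cells, whose treated and vehicle libraries overlapped (log2 interaction 0.75 ± 0.15, adjusted p = 0.000503). The other catalytic genes, Psmb6 and Psmb7, had log2 interactions of 1.38 ± 0.13 and 1.14 ± 0.16, and Psmb3, Psmb1 and Psmb2 had 1.43 ± 0.16, 1.27 ± 0.14 and 1.05 ± 0.16.

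The 19S particle receives ubiquitinated proteins, and its ring of 6 ATPases unfolds them. All 6 ATPase genes were above mock, with a median of 1.55. Psmc4 rose in both lines, from 92.9, 97.2 and 89.4 to 139, 133 and 110.4 CPM in mock and from 91, 98.1 and 88 to 539, 399 and 369 in T-N1G cells (log2 interaction 1.78 ± 0.16, adjusted p = 8.24e-08). Psmc5, Psmc3, Psmc6 and Psmc1 followed at 1.70 ± 0.14, 1.66 ± 0.17, 1.44 ± 0.13 and 1.23 ± 0.10. Psmc2 had the smallest of the 6 (0.81 ± 0.11), and it was also the ATPase gene with the largest rise in mock cells (0.77). The 4 genes of base scaffolds and ubiquitin receptors were all above mock, Psmd4 at 1.83 ± 0.15, Psmd2 at 1.60 ± 0.13, Psmd1 at 1.24 ± 0.12 and Adrm1 at 1.20 ± 0.11. Psmd4 and Adrm1 encode receptors for ubiquitin chains, and both also rose in mock cells, by 0.59 and 0.81.

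The lid removes ubiquitin chains through Psmd14. Of 9 lid genes 7 were above mock. Psmd11 stood at 123, 125 and 119 CPM in mock cells under vehicle and at 134, 152 and 137 at 1.0 µM, and at 149.9, 159 and 154 and then 789, 654 and 744 in T-N1G cells. That is a 4.72-fold rise with T-N1G against 1.16-fold in mock, and an interaction of 2.03 ± 0.10 (adjusted p = 1.25e-10). Psmd3, Psmd12, Psmd7, Psmd6, Psmd13 and Psmd14 had log2 interactions of 1.68 ± 0.11, 1.51 ± 0.11, 1.38 ± 0.12, 1.31 ± 0.16, 1.17 ± 0.12 and 0.96 ± 0.10. Psmd8 differed from its list. It rose in both lines, from 226, 229.8 and 213 to 452, 312 and 275 CPM in mock and from 193, 193 and 185 to 367, 255 and 224 in T-N1G cells, and the groups at 1.0 µM overlapped. Shfm1, the small lid subunit also known as Dss1, fell in mock cells by 0.79 on the log2 scale and had a change of -0.42 ± 0.19 in T-N1G cells (adjusted p = 0.0586). Without T-N1G library 3 at 1.0 µM the interaction of Shfm1 was called, at 0.56 with an adjusted p of 0.0276.

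Small Maf heterodimers bind the antioxidant response element, so promoter sequences are shown for some genes above mock. RefSeq promoter windows of build GRCm38.p6, 250 bases before to 50 after a gene's start, were matched by symbol to 10493 of the 13258 genes and to 27 of the 33 proteasome subunits. The windows were searched on both strands for TGACNNNGC, the core of that element, and for TGAGNNNGC, a close form. The motifs differ at the fourth base, so a stretch read on 1 strand cannot match both, and a window that holds both counts once in the joint share. One or the other stood in 14 of the 27 subunits (51.9%), in 35.6% of all tested genes, in 40.4% of the 845 matched genes above mock by a log2 of 1 or more and in 47.9% of the 190 above by 2 or more. It stood in 31.5% of the 698 matched genes at a log2 of -1 or less and 26.2% of the 84 at -2 or less. Over all matched genes TGACNNNGC stood in 16.9% and TGAGNNNGC in 23%. A match describes letters and not a bound site. The stretches shown hold a match in 5 subunits from 4 of the 5 subunit lists, in the p97 gene Vcp, in 3 antioxidant and haem genes and in Cpxm1, one of the largest interactions. These genes were picked among those above mock with a match. Genes below mock, such as Sprr1a and Cxcl12, hold matches too. The stretches are given in GRCm38.p6 coordinates, 5′ to 3′ on the gene's strand, with 1 match each in capitals. That of Psmc6 also holds a TGAGNNNGC match, left in lower case.
Psma4, chr9:54950712-54950760, + strand: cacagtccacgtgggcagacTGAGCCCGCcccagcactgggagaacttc
Psmb5, chr14:54618014-54618062, - strand: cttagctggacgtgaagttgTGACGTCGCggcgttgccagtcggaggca
Psmc6, chr14:45329577-45329625, + strand: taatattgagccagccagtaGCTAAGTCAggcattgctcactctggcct
Psmd1, chr1:86064375-86064423, + strand: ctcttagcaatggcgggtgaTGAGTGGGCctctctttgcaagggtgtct
Adrm1, chr2:180171406-180171454, + strand: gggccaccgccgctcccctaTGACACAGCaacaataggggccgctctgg
Vcp, chr4:43000593-43000641, - strand: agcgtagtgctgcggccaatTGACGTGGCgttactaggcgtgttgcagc
Srxn1, chr2:152105459-152105507, + strand: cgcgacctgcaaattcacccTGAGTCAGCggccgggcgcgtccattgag
Gclm, chr3:122245403-122245451, + strand: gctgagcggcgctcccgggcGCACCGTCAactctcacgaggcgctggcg
Blvrb, chr7:27447889-27447937, + strand: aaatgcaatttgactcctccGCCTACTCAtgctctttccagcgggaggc
Cpxm1, chr2:130397807-130397855, - strand: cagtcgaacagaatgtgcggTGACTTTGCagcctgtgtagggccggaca

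Genes that build, cap or assist the proteasome followed in part. Of 8 assembly chaperone genes 5 were above mock and none below (median 0.68), against 22.9% and 22.1% of all genes. Psmd5, a chaperone of the 19S base, fell in mock cells from 95.6, 97.8 and 97.7 to 47.9, 62 and 56 CPM and rose in T-N1G cells from 123, 129 and 119.8 to 338, 289 and 305 (log2 interaction 2.13 ± 0.12, adjusted p = 2.92e-10). Pomp, which matures the 20S core, had an interaction of 1.16 ± 0.22 (adjusted p = 0.000382). Of 17 activators and associated factors 10 were above mock and 2 below (median 0.62). Usp14, a deubiquitinase on the proteasome, moved from 145, 146 and 135 to 102, 119 and 114 CPM in mock and from 168, 176 and 166 to 559, 486 and 507 in T-N1G cells (log2 interaction 1.95 ± 0.10, adjusted p = 1.83e-10). AI314180, the table's symbol for the adaptor Ecm29, Psme4, the activator PA200, and Zfand5, a ubiquitin-binding stress protein, followed at 1.79 ± 0.12, 1.74 ± 0.10 and 1.49 ± 0.13. Against them, Psme1, part of the 11S activator that interferon induces, was below mock at -0.71 ± 0.16 (adjusted p = 0.00146), falling in T-N1G cells from 31.4, 29.8 and 32.3 to 12.4, 14.8 and 15.2 CPM. Ubqln4, a shuttle of ubiquitinated proteins, was also below (-0.69 ± 0.13). Of 6 immunoproteasome and antigen transport genes 1 (16.7%, under the 22.9% of all genes) was called above mock. It was Tap2, at 1.26 ± 0.47 (adjusted p = 0.0419), and that call was lost in 11 of 20 alternatives.

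The p97 machine, which pulls proteins such as Nrf1 out of membranes, was above mock as well. Of 14 genes 11 were above mock and 1 below, with a median of 0.76. Nploc4, part of the adaptor that brings ubiquitinated proteins to p97, stood at 158, 170.0 and 157 CPM in mock cells under vehicle and 207, 193 and 191 at 1.0 µM, and at 161, 172 and 163 and then 663, 552 and 633 in T-N1G cells (log2 interaction 1.61 ± 0.10, adjusted p = 1.18e-09). Its partner Ufd1l had 1.40 ± 0.10, the chain-extending ligase Ube4b 1.35 ± 0.11, and Vcp, the ATPase itself, 1.32 ± 0.13. Vcp fell slightly in mock cells, from 998, 996 and 956 to 830.3, 887 and 735 CPM, and rose in T-N1G cells from 1088, 1136 and 1092 to 2685, 2034 and 2184. Ubxn2a, another cofactor, rose in mock cells by 1.15 and was below mock (-0.90 ± 0.15). Of the 10 genes that process or destroy Nrf1, 4 were above mock and 1 below, against 22.9% and 22.1% of all genes. Ngly1, the deglycosylating enzyme, had 1.27 ± 0.25, Ogt 0.81 ± 0.17, and the membrane ligase genes Syvn1 and Sel1l 0.60 ± 0.11 and 0.42 ± 0.12. Ddi2, the protease that cleaves Nrf1, was the one below at -0.28 ± 0.11 (adjusted p = 0.0438), a call lost in 5 of 20 alternatives. Of 9 ubiquitin precursor and E1 genes 2 were above, among them Uba3 at 0.62 ± 0.10, and none below.

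Antioxidant genes, the other class known to carry these elements, were also above mock. Of 15 glutathione and thioredoxin genes 10 were above and none below, against 22.9% and 22.1% of all genes, with a median of 1.02. Of these 10, 5 rose in both lines, 3 fell in mock and rose in T-N1G cells, and 2 fell in mock with no call in T-N1G cells. The mock median log2 response of the 15 was -0.41 and the T-N1G median 0.70. Srxn1, which repairs oxidized peroxiredoxin, stood at 32.5, 31.8 and 34.9 CPM in mock cells under vehicle and 59.5, 48.2 and 56.3 at 1.0 µM. In T-N1G cells it went from 47.8, 46.4 and 40.8 to 645, 402 and 635, with library 2 the lowest of the treated ones and still far above every mock library (log2 interaction 2.91 ± 0.20, adjusted p = 6.04e-09). Slc7a11, the cystine importer, rose in both lines, from 10.0, 11.6 and 8.08 to 52.1, 25.3 and 43.8 CPM in mock and from 13, 9.52 and 8.15 to 179, 119 and 218 in T-N1G cells (log2 interaction 2.05 ± 0.38, adjusted p = 0.000468). Gclm and Gclc encode the 2 subunits of the enzyme that limits glutathione synthesis. Gclm, called in both lines, went from 48.2, 55 and 52.7 to 39.2, 39.8 and 38.6 CPM in mock and from 113, 105 and 103 to 249, 206 and 251 in T-N1G cells, having started higher there, and its interaction was 1.54 ± 0.11; that of Gclc was 1.02 ± 0.12. Gsr, glutathione reductase, fell in mock cells and rose with T-N1G (-0.99 in mock cells and 0.70 with T-N1G on the log2 scale, interaction 1.69 ± 0.13).

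Reducing power comes from the pentose phosphate pathway, and its genes split. Of 8, 5 were above mock and 3 below, where 22.9% and 22.1% of all genes were. Taldo1, transaldolase, went from 101, 102 and 99.3 to 44.3, 68.4 and 54.1 CPM in mock and from 100.3, 107 and 105 to 313, 239 and 238 in T-N1G cells (log2 interaction 2.19 ± 0.17, adjusted p = 1.8e-08). Pgd and G6pdx, 2 NADPH-forming dehydrogenases of the pathway, had 1.67 ± 0.11 and 0.90 ± 0.09, while Rpia, Pgls and Idh1 were below at -0.64 ± 0.16, -0.49 ± 0.11 and -0.61 ± 0.24; the call of Idh1 was lost in 7 of 20 alternatives. Of 13 quinone, carbonyl and export genes 6 were above and none below. Nqo1, a quinone reductase and common marker of this response, fell in mock cells from 4.97, 3.80 and 4.47 to 1.58, 1.69 and 1.58 CPM and rose in T-N1G cells from 13, 13.5 and 14.5 to 20.2, 18.4 and 20.4 (log2 interaction 1.97 ± 0.17, adjusted p = 6.69e-08). Osgin1 had a larger value, 2.57 ± 0.53, and Ptgr1 and Akr1b10 had 1.70 ± 0.19 and 1.60 ± 0.16. Of 14 glutathione S-transferase genes 5 (35.7%) were above and none below, 3 by limma voom and 3 without mock library 1 at 1.0 µM. Gsta4 rose in T-N1G cells from 9.41, 11 and 8.79 to 9.21, 16.3 and 20.2 CPM, groups that overlap, and fell in mock cells from 1.98, 2.45 and 2.56 to 0.507, 0.845 and 1.01 (log2 interaction 2.19 ± 0.39, adjusted p = 0.000213). Gsta, Gstm and Akr1b genes have close copies, between which the counting could have split fragments.

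**Figure D3:**
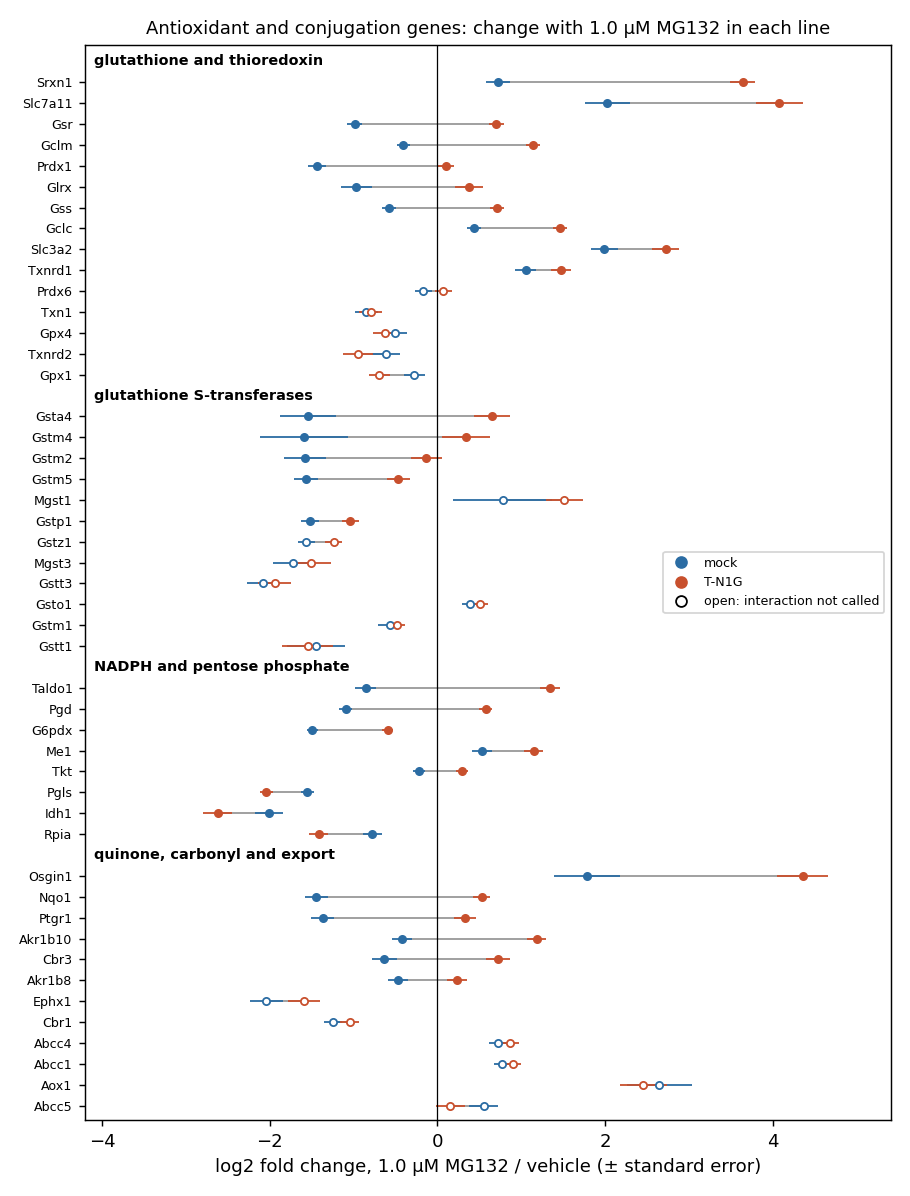
Log2 fold change from vehicle to 1.0 µM MG132, with its standard error, in mock (blue) and T-N1G cells (orange) for 47 of the 50 tested genes of 4 antioxidant lists; 3 genes that stay under 1 CPM in every group or whose standard error is 1 or more are left out. Filled points mark a called interaction, and in every filled pair outside the NADPH list the T-N1G point lies to the right of the mock point.

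Haem and iron genes went both ways. Of 15 haem genes 8 were above mock and 3 below, against 22.9% and 22.1% of all genes, with 5 below without T-N1G library 2 at 1.0 µM and 6 once both number 2 libraries were left out. Blvrb, a biliverdin reductase, fell slightly in mock cells, from 9.76, 10.5 and 11.3 to 7.84, 9.56 and 8.54 CPM, and rose in T-N1G cells from 19.6, 19.3 and 18.3 to 132, 102 and 125 (log2 interaction 2.94 ± 0.15, adjusted p = 9.16e-11). Slc48a1, a haem transporter of the lysosome, had 2.01 ± 0.18. Hmox1, haem oxygenase and a well known target of the antioxidant response, was below mock. It rose in mock cells from 1131, 1183 and 1076 to 6885, 5093 and 7951 CPM and in T-N1G cells only from 932, 922 and 899.8 to 2163, 1823 and 3312, without overlap at 1.0 µM (log2 interaction -1.15 ± 0.24, adjusted p = 0.000789). Of 12 iron genes 5 were above and 5 below, where 2 were below without mock library 3 at 1.0 µM and 1 in a fit of the 12 libraries alone. Fth1, ferritin heavy chain, fell in mock cells from 503, 522 and 523 to 277, 341 and 281 CPM and was not called in T-N1G cells, at 935, 973 and 966 and then 1053, 1135 and 989 (log2 interaction 0.93 ± 0.12, adjusted p = 4.07e-06).

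Genes of the mitochondrial ribosome, which translates the few proteins encoded by mitochondrial DNA, were above mock in 41 of 77 cases and below in 9, against 22.9% and 22.1% of all genes. Their median log2 interaction was 0.42, with medians of -0.39 in mock and -0.01 in T-N1G cells. Mrps22 rose from 41.5, 45.5 and 41.8 to 58.7, 67 and 68.7 CPM in mock and from 36.8, 41.6 and 32.6 to 147, 133 and 135 in T-N1G cells (log2 interaction 1.31 ± 0.13, adjusted p = 2.89e-07). Mrpl51 fell in mock cells from 81.1, 76.7 and 79.7 to 27.5, 32.7 and 26.2 CPM and stood at 74.1, 78.1 and 71.5 and then 79.9, 65 and 61.7 in T-N1G cells (log2 interaction 1.34 ± 0.14, adjusted p = 3.72e-07). Mrpl47 and Mrpl16 had 1.48 ± 0.17 and 1.25 ± 0.15, and the 9 below, all of which fell in both lines, lay between -0.66 for Mrps36 and -0.32 for Mrps25. Subunits of oxidative phosphorylation were above mock in 22 of 78 cases (28.2%), near the background, and below in 1 (1.28%). Their median log2 responses were -0.90 in mock cells and -0.66 with T-N1G, and 66 of 78 genes fell in mock and 52 in T-N1G cells, where 37.4% and 38.9% of all genes fell. Atp5s, Ndufa5, Atp5h and Ndufa10 led with log2 interactions of 1.14 ± 0.25, 1.07 ± 0.18, 1.03 ± 0.18 and 0.95 ± 0.11. Cytosolic ribosomal protein genes had the smallest share of calls of all lists: 1 of 79 was above, Rpl24 at 0.44 ± 0.16 (adjusted p = 0.0291), and none below, with a median of -0.04. That 1 call was lost in 13 of 20 alternatives, and 6 of the 79 were called below without T-N1G library 2 at 1.0 µM and 7 once both number 2 libraries were left out.

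Most of the largest interactions above mock were in genes of varied function outside these lists. Fam13a (chr6:58883529-58974496, mm9), linked to lung function in genetic studies, stood at 3.36, 3.01 and 3.42 CPM in mock cells under vehicle and 1.13, 1.64 and 1.92 at 1.0 µM, and at 5.33, 4.14 and 4.56 and then 91, 79.4 and 99.5 in T-N1G cells. The lines did not overlap at either treatment, but stood far closer under vehicle, and the log2 interaction was 5.31 ± 0.22 (adjusted p = 1.78e-11) or 39.7-fold. Map1a (chr2:121115337-121176749, mm9), a microtubule-associated protein of neurons, fell in mock cells from 48.4, 45.2 and 55.9 to 12.7, 17.8 and 22.4 CPM and rose in T-N1G cells from 112, 109 and 123 to 537, 407 and 696 (log2 interaction 3.75 ± 0.26, adjusted p = 1.07e-08). Cpxm1, a member of the carboxypeptidase family, went from 14.7, 14.6 and 15.4 to 5.69, 6.13 and 8.15 CPM in mock and from 33.4, 26.9 and 28.7 to 172, 154 and 189.8 in T-N1G cells (log2 interaction 3.69 ± 0.18, adjusted p = 7.9e-11). All 3 fell in mock cells and rose with T-N1G. Pafah2, an enzyme that hydrolyses oxidized phospholipids, shared that shape (-0.95 in mock cells and 2.61 with T-N1G, interaction 3.56 ± 0.18). Fbxo2, a ubiquitin ligase subunit that recognises sugar chains on proteins, was not called in mock cells (2.12, 2.64 and 2.69 CPM, then 1.80, 2.32 and 1.87) and rose in T-N1G cells from 2.13, 2.76 and 2.30 to 25, 28.2 and 24.9 (log2 interaction 3.75 ± 0.20, adjusted p = 2.56e-10). Kif5a, a neuronal kinesin, and the unannotated transcript 9330159M07Rik had 3.46 ± 0.53 and 3.47 ± 0.29 from levels near 1 CPM. Igsf11, an adhesion protein, rose in both lines from nearly nothing (3.46 ± 0.83). Srpx2 had 0, 0 and 1 fragments in the mock libraries under vehicle and 0, 0 and 0 at 1.0 µM, and 0, 0 and 3 and then 146, 164 and 232 in T-N1G cells, so no fold is given for it (adjusted p = 0.0189).

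**Figure D4:**
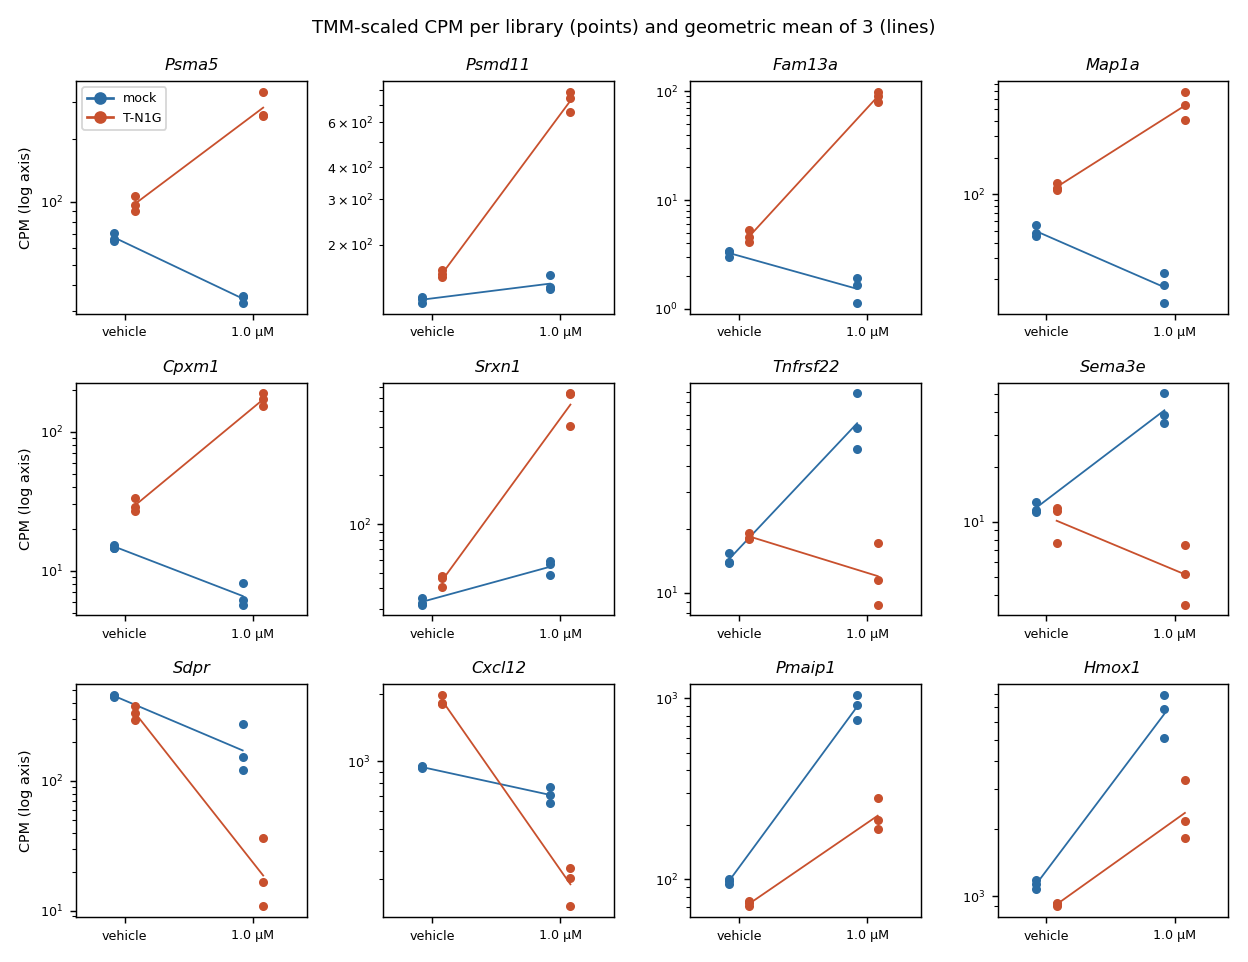
CPM per library on a log axis for 12 genes under vehicle and at 1.0 µM MG132 in mock (blue) and T-N1G cells (orange); points are single libraries and lines join the geometric means of 3. The 12 were picked from the called genes, the first 6 above mock and the last 6 below. That the lines do not overlap at 1.0 µM in any of them follows in part from this choice.

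The largest interactions below mock combined the 2 responses in several ways. Tnfrsf22 (chr7:150822629-150835543, mm9), a decoy receptor of the death ligand TRAIL, rose in mock cells from 15.5, 13.8 and 14 to 60.8, 88.5 and 48.2 CPM and fell in T-N1G cells from 18.1, 19.3 and 18.2 to 8.78, 17.1 and 11.5 (log2 interaction -2.75 ± 0.29, adjusted p = 9.66e-07). Sema3e, a guidance cue, also went up in the former and down in the latter, from 11.4, 11.7 and 12.9 to 38.8, 50.8 and 34.8 CPM in mock and from 7.65, 11.5 and 11.9 to 5.22, 7.50 and 3.52 in T-N1G cells (log2 interaction -2.73 ± 0.34, adjusted p = 6.16e-06). For both genes every mock library at 1.0 µM lay above every T-N1G library. Sdpr, a caveola protein, fell in both lines but further with T-N1G, from 441, 463 and 454 to 154, 274 and 121 CPM in mock and from 334, 381 and 298 to 16.6, 36.2 and 10.8 in T-N1G cells (log2 interaction -2.69 ± 0.48, adjusted p = 0.000475). Inhbb, an activin subunit, Map3k7cl and Nptxr, a receptor of neuronal pentraxins, fell in T-N1G cells with no call in mock (-3.00 ± 0.46, -2.93 ± 0.43 and -2.59 ± 0.42). Sprr1a, a cornified envelope protein, rose in both lines, by 3.84 in mock cells and 1.02 with T-N1G (interaction -2.82 ± 0.61). Plekha6 had -2.84 ± 0.47, with the groups overlapping at 1.0 µM, and T-N1G cells stood higher under vehicle, at 21.3, 10.2 and 13.2 CPM against 2.53, 2.41 and 3.65. The tight junction gene Cldn1 and the Wnt antagonist Sfrp1 had -2.99 ± 0.77 and -2.59 ± 0.63, each losing its call in 1 of 20 alternatives. Of the 6 tested epithelial markers, whose summed levels are given with the libraries, Krt19 and Krt8 were below mock too (-1.72 ± 0.21 and -2.92 ± 0.62). The other 4 were not called. Of 4 tested leukocyte markers 1, Cd14, was above mock and none below, against 22.9% and 22.1% of all genes. That call was lost in 5 of 20 alternatives. Of 5 endothelial markers Pecam1 was above and Kdr below, and of 4 muscle and fat markers 1, Fabp4, was above. Whether the culture held epithelial cells, and their part in the values of Cldn1 and Sprr1a, was not tested.

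Contractile genes and targets of the actin-regulated factors SRF and YAP were below mock in 11 of 18 cases and above in none (median -0.67), where 22.1% of all genes were below and 22.9% above, or 7 of 18 without mock vehicle library 2, mock library 3 at 1.0 µM or T-N1G library 2 at 1.0 µM. In bulk RNA, fewer cells of a type and less RNA per cell cannot be told apart, here or in the lists that follow. Srf stood at 98.4, 88.2 and 96.2 CPM in mock cells under vehicle and 106, 87.5 and 125 at 1.0 µM, and at 122, 126 and 101 and then 56.6, 50.5 and 68.3 in T-N1G cells (log2 interaction -1.17 ± 0.18, adjusted p = 4.16e-05). Cnn2, a calponin, fell in both lines and further with T-N1G, from 743, 760.2 and 645 to 95.1, 135 and 119.5 CPM there (log2 interaction -1.16 ± 0.17, adjusted p = 3.33e-05). Thbs1 and Actg2 had larger values, -1.29 ± 0.48 and -1.73 ± 0.63, but lost their calls in 11 and 9 of 20 alternatives. Of 19 matrix proteases and inhibitors 8 were below and none above. Plau, urokinase, rose in mock cells from 29.2, 25.8 and 25.6 to 57.5, 46.5 and 49.1 CPM and fell in T-N1G cells from 47.1, 38.4 and 38.2 to 24.1, 22.1 and 21.5 (log2 interaction -1.79 ± 0.14, adjusted p = 2.09e-08). Adamts5, an aggrecanase, fell in both lines, from 214, 239.8 and 240.0 to 42.3, 39.3 and 42.7 CPM in mock and from 404, 395 and 443 to 21.4, 23.1 and 21.7 in T-N1G cells (log2 interaction -1.75 ± 0.11, adjusted p = 1.03e-09). Of 13 fibroblast markers 4 (30.8%) were below and none above, 7 below without T-N1G library 2 at 1.0 µM and 9 once both number 2 libraries were left out. Of 19 collagen genes 5 (26.3%, near the background) were below and none above, 8 below without the number 2 libraries at 1.0 µM and 2 without mock library 3 at 1.0 µM, and Col3a1 had -1.03 ± 0.25 with overlapping groups at 1.0 µM.

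Many cell cycle genes fell further with T-N1G. Of 30 mitotic genes 15 were below mock and 2 above (median -0.43), where 22.1% of all genes were below and 22.9% above. Of the 15 below, 14 fell in both lines, where 37.4% of all genes fell in mock and 38.9% in T-N1G cells. Without T-N1G library 3 at 1.0 µM 4 mitotic genes were above, and without T-N1G vehicle library 1 only 1. Ube2c, which starts the destruction of mitotic cyclins, fell in mock cells from 175, 167 and 182 to 49, 53.4 and 49.8 CPM and in T-N1G cells from 154, 169 and 158 to 17.6, 26.7 and 17.1 (log2 interaction -1.19 ± 0.16, adjusted p = 9.04e-06). Nusap1 and Kif23 had -1.18 ± 0.21 and -1.03 ± 0.16. Bub1b, a spindle checkpoint kinase, went against its list: it fell in mock cells from 137, 130.3 and 134 to 55.6, 69.1 and 52.3 CPM and rose in T-N1G cells from 141, 153 and 153 to 256, 233 and 173 (log2 interaction 1.75 ± 0.16, adjusted p = 1.34e-07). Of 34 replication genes 14 were below and 1, Orc1, above, at 0.65 ± 0.14 (median -0.36), and without the number 2 libraries at 1.0 µM 22 were below. Uhrf1, which copies DNA methylation, was not called in mock cells, at 237, 227 and 236 CPM and then 173, 229 and 192, and fell in T-N1G cells from 254, 242 and 253 to 50.8, 114 and 69.2 (log2 interaction -1.44 ± 0.26, adjusted p = 0.000332). Ccnd1, cyclin D1, started lower in T-N1G cells, at 97.4, 118 and 115 CPM against 357, 358 and 359.6, and had -1.24 ± 0.35.

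Several genes of cell death and of the amino acid response were below mock. Pmaip1, which encodes the death inducer Noxa, rose in mock cells from 97.6, 93.9 and 101 to 1044, 916 and 758 CPM and in T-N1G cells from 75.3, 73.5 and 70.7 to 279, 213 and 189, a rise of 9.30-fold against 3.10-fold (log2 interaction -1.59 ± 0.17, adjusted p = 9.54e-07). Bcl2l11, which encodes the death inducer Bim, had a smaller rise too (2.39 in mock cells and 1.11 with T-N1G, interaction -1.28 ± 0.16). Of 11 BCL2 family genes 5 were below mock and 1 above, against the 22.1% and 22.9% of all genes that hold for each list here: Bok and Bcl2, a killer and a protector, fell further with T-N1G (-1.82 ± 0.15 and -1.39 ± 0.23), and Bak1 was above (1.19 ± 0.08). Of 17 regulators around ATF4 and CHOP, the arm that answers amino acid shortage and unfolded protein, 8 were below and 2 above (median -0.38), with 1 above on leaving out any mock vehicle library or several others. Stc2, a secreted stanniocalcin, rose in mock cells from 7.14, 7.27 and 5.89 to 21.7, 19 and 19.9 CPM and stood at 6.58, 3.73 and 3.59 and then 3.07, 2.09 and 4.93 in T-N1G cells (log2 interaction -2.03 ± 0.34, adjusted p = 9.19e-05). Chac1, which degrades glutathione, had -0.88 ± 0.23, whereas Atf4 itself was above at 0.65 ± 0.13. Of 17 amino acid supply genes 8 were below and none above, led by Pycr1 of proline synthesis (-1.27 ± 0.20). Of 20 aminoacyl-tRNA synthetase genes, by contrast, 9 were above and 3 below, led by Hars (1.29 ± 0.15), with 5 below without the number 2 libraries at 1.0 µM. Of 23 p53 target genes 6 (26.1%, near the background) were above and 8 below, and of 5 metallothionein and zinc genes 2 were above and 1 below, neither list with a common direction. Of 22 inflammatory genes 3 were below and 1 above, with 5 below without mock vehicle library 3, mock library 2 or T-N1G library 3 at 1.0 µM, 5 by DESeq2 and 6 without the number 2 libraries at 1.0 µM. Cxcl12, a chemokine, crossed: it started higher in T-N1G cells, at 1974, 1804 and 1809 CPM against 954, 944 and 936, and ended lower, at 228, 335 and 303 against 711, 656 and 768 (log2 interaction -2.28 ± 0.15, adjusted p = 2.36e-09). Tnfaip3, a brake on NF-kB, rose less with T-N1G (-1.49 ± 0.25). AP-1 factors relay growth and stress signals. Of 20 immediate-early genes 7 were below and 3 above, 5 above without T-N1G library 2 at 1.0 µM. Among those above was Fosl1, which rose from 6.82, 5.60 and 7.12 to 44.8, 34.7 and 49 CPM in mock and from 4.22, 5.11 and 2.99 to 127, 91.9 and 154 in T-N1G cells (log2 interaction 2.20 ± 0.28, adjusted p = 7.31e-06).

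Heat shock genes, which are known to answer proteasome inhibition, showed no common direction. Hspa1a and Hspa1b, near-identical copies whose fragments the counting could have split, rose by 8.18 in mock cells and 8.85 with T-N1G and by 7.32 in mock cells and 7.74 with T-N1G on the log2 scale, with interactions of 0.67 ± 0.53 and 0.42 ± 0.27 (adjusted p = 0.331 and 0.211). Of all genes 22.9% were above and 22.1% below, and the shares of several lists here lay near these. Of 11 HSP70 and HSP110 genes 2 were above and 4 below, Hspa4l the lowest: it rose from 26.8, 24.1 and 31.5 to 153, 217 and 184 CPM in mock and from 21, 26.2 and 25.7 to 42.7, 75 and 66.9 in T-N1G cells (log2 interaction -1.41 ± 0.25, adjusted p = 0.000202). Of 21 DNAJ and BAG genes 6 were above and 5 below, but only 3 above when mock vehicle library 2 or 3 or T-N1G vehicle library 1 or 3 was left out. Of 15 HSP90 and small heat shock genes 3 were above and 3 below (20% each), 5 below without mock library 1 at 1.0 µM, with Hsf2, a heat shock factor, at 1.49 ± 0.13 and the co-chaperone Fkbp4 at -1.42 ± 0.16. The chaperonin TRiC had 1 of 8 above, Cct3 (0.61 ± 0.12), and the unfolded protein response 2 of 23 above and 5 below, with the call of Hspa5 (0.87 ± 0.30) lost in 9 of 20 alternatives. Autophagy was split, with 12 of 28 above and 8 below. Sqstm1, the receptor p62, rose in both lines, from 226, 263 and 226 to 977, 1028 and 997 CPM in mock and from 286, 278 and 318 to 4144, 3607 and 3654 in T-N1G cells (log2 interaction 1.62 ± 0.12, adjusted p = 6.11e-09), and Gabarapl1 and Tax1bp1 had 1.36 ± 0.17 and 1.33 ± 0.15, whereas Map1lc3a and Map1lc3b were below (-1.20 ± 0.14 and -0.83 ± 0.15). Of 30 lysosomal genes 11 were above and 5 below, 3 below in a fit of the 12 libraries alone, with the proton pump subunit Atp6v0a1 furthest above: 66.1, 66.5 and 65.8 CPM and then 18.9, 31.3 and 32.7 in mock, 51, 47.5 and 54.6 and then 143, 119.6 and 166 in T-N1G cells (log2 interaction 2.74 ± 0.21, adjusted p = 1.75e-08). Of 33 cholesterol and fatty acid genes 3 were above and 7 below (21.2%), and 15 were below without T-N1G library 2 at 1.0 µM and 17 once both number 2 libraries were left out.

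**Figure D5:**
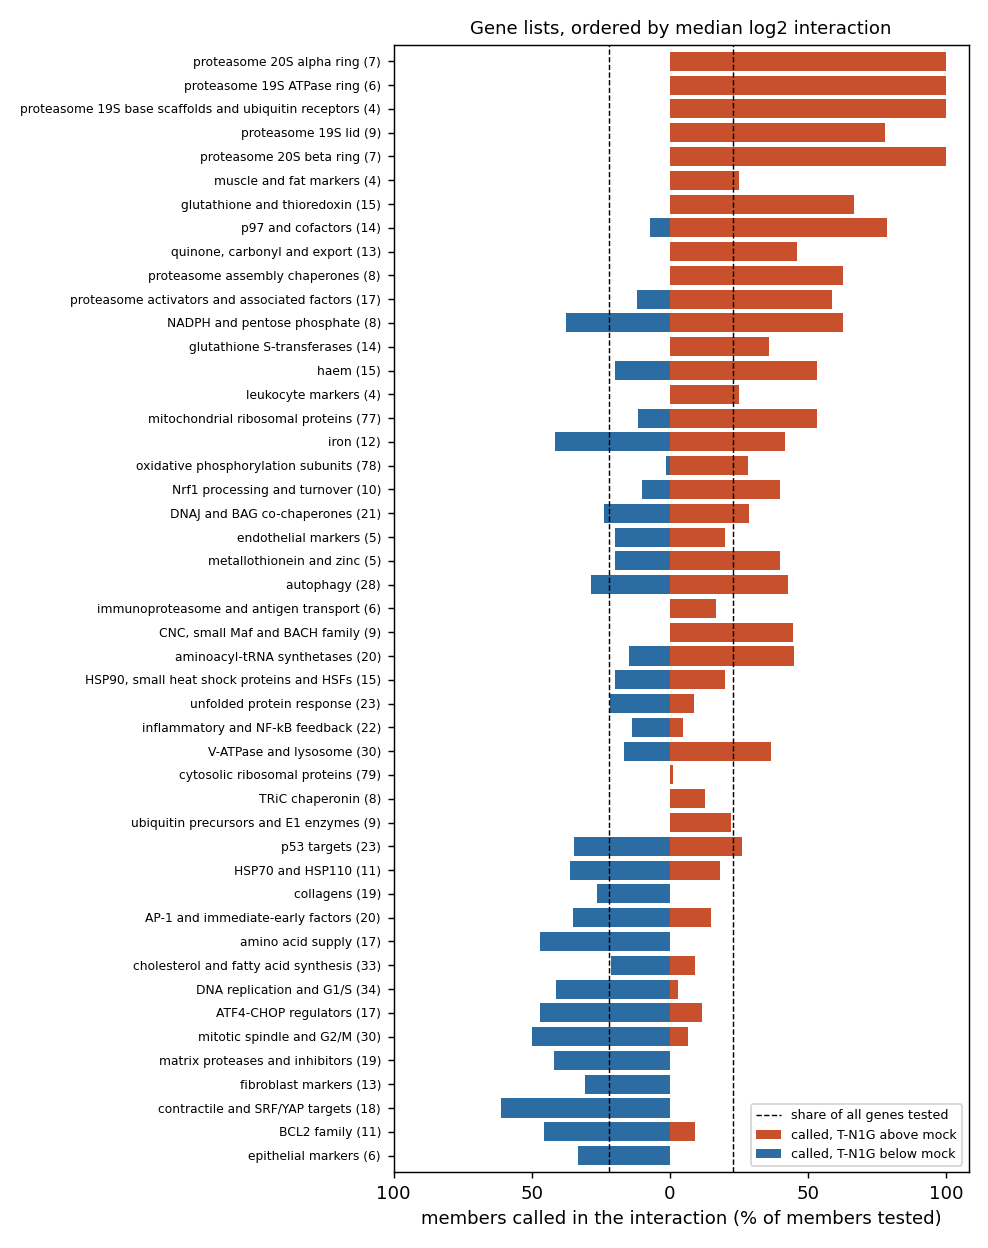
For each gene list (number of tested members in brackets), the share of members called above mock (orange, right) and below mock (blue, left) in the interaction, in order of the median log2 interaction; dashed lines mark the 22.9% and 22.1% of all genes. The proteasome rings reach 77.8% to 100% above mock, the contractile list has the longest bar below, and cytosolic ribosomal proteins have almost no bar.

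Whether the interaction at 1.0 µM differs from that at 0.3 µM was tested in the same fit, as the change from 0.3 to 1.0 µM in T-N1G minus that in mock cells, in which the vehicle libraries cancel. It was larger in 914 genes (6.89%) and smaller in 742 (5.6%), and 1656 of 13258 (12.5%) were called either way. Larger and smaller go by the sign of this difference. An interaction further below mock at 1.0 µM thus counts as smaller, and one less far below mock as larger. Of the 33 proteasome subunits 7 had a larger interaction at 1.0 µM and none a smaller one. Psma5 differed most, with 50.5, 55 and 52.4 CPM at 0.3 µM in mock cells and 254, 281 and 251 with T-N1G, beside 32.7, 35.6 and 35 and 337, 256 and 260.4 at 1.0 µM. Its log2 difference between the doses was 0.73 ± 0.13 (adjusted p = 0.00233), and the other 6 lay between 0.40 and 0.57. For the other 26 subunits the difference between the doses was not called, which does not show that the doses acted alike. Nfe2l1 itself stood at 4986, 4914 and 4012 CPM in T-N1G cells at 0.3 µM, and its interaction was larger at 1.0 µM by 2.13 ± 0.18 (adjusted p = 8.03e-06). Fam13a and Map1a were larger at 1.0 µM as well, by 1.12 ± 0.24 and 1.00 ± 0.25, while Srxn1 and Slc7a11 had differences of -0.03 ± 0.20 and 0.01 ± 0.36 (adjusted p = 0.935 and 0.99). Below mock, Sema3e, Sdpr, Map3k7cl and Tnfrsf22 lay further below at 1.0 µM, by -2.16 ± 0.35, -2.13 ± 0.48, -1.56 ± 0.50 and -1.11 ± 0.28. These genes, Fam13a and Map1a were named for their large interactions at 1.0 µM, and the dose difference uses the same libraries. That choice favours a stronger interaction at 1.0 µM than at 0.3 µM. Of the 23 targeted and leading genes, 5 were larger and 4 smaller at 1.0 µM, and the rest were not called. The number of smaller interactions was 1445 without T-N1G library 2 and 1761 without the number 2 libraries of both lines at 1.0 µM, and that of larger ones 589 without T-N1G library 1 at 1.0 µM.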

How the data were processed

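RNA was measured in 18 libraries, 3 in each of 6 groups, of which the 12 under vehicle and 1.0 µM MG132 form the contrast and all 18 share 1 fit. The submitters' processing notes name Cuffdiff 2.1.1, TopHat2 2.0.8b, bcl2fastq 2.16.0.10 and build mm9. The sources used here give neither the annotation nor the strand setting of the counting, so overlapping and antisense genes are uncertain. Per the labels' protocols the library kit keeps strand. The deposited table, made by the authors with Cuffdiff, holds unscaled estimated counts of fragments; they were rounded to whole numbers. Line and dose were read from the condition names (N1 as T-N1G, H-MG as 1.0 µM), and Cuffdiff's library numbers were taken as those of the titles, a link the files do not state. Genes left unprocessed upstream in some libraries, 2 of 24318, were dropped. Values of some single genes are not reported here.

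No 2 libraries of a group were duplicates: chi-square over degrees of freedom, from gene counts, was at least 3.17 for every pair. The test was the quasi-likelihood F test of edgeR 4.0.16 under R 4.3.3, after TMM scaling and the default filter by group, with robust dispersion and without covariates, and p-values were Benjamini-Hochberg adjusted over 13258 genes and called under 0.05. Standard errors are the size of the log2 value over the square root of F. Levels are TMM-scaled CPM; fragments are not molecules, so counting precision covers counting error only, and with 18164382 fragments or more 1 CPM is about 18 fragments. The interaction was also run on simulated data of 13258 genes. Of 100 genes changed by a log2 of 1, 84% were recovered, of 100 changed by 2, 98%, and 14 unchanged genes were called. The simulated libraries were independent draws with 1 spread per gene for all groups, and only these well-counted genes were changed. In the data the groups at 1.0 µM were more widely spread and 45% of genes were called, so these rates do not give the power of this contrast. Alternatives were RLE scaling, library size alone, no filter, DESeq2 1.42.0, limma 3.58.1 voom, the 12 libraries alone, a replicate block and leaving out each library; leaving out the number 2 libraries at 1.0 µM was added after seeing the data. Named genes are Nfe2l1, Mafg, Maff and Mafk, the 10 largest called interactions each way at a mean of 10 CPM or more in a group, up to 4 leading called members of each list with those called against it, and all proteasome subunits; Hspa1a, Hspa1b, Gclc and the genes listed for their dose difference were named after their values were seen. The comparison and the lists were chosen with earlier results of these data known. Promoter sequences are RefSeq's, build GRCm38.p6. Plots were made with matplotlib 3.10.9.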

Additional observations from a re-analysis of the deposited data

Results flagged for a closer look

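The response to 1.0 µM MG132 differed between the lines by the interaction test in 3038 genes above mock and 2926 below. The interaction differed between 1.0 and 0.3 µM by the test of that difference in 914 genes that were larger and 742 that were smaller, or 1761 smaller without the number 2 libraries at 1.0 µM. Larger and smaller go by sign, so the smaller ones include genes that lay further below mock at 1.0 µM. Of the 23 targeted and leading genes, 5 were larger and 4 smaller at 1.0 µM, and the rest were not called. The leading genes were picked at 1.0 µM, which favours a stronger interaction there. Among those called, the log2 difference between the doses was 2.13 for Nfe2l1, 1.12 for Fam13a, 1.00 for Map1a, 0.78 for Cpxm1 and 0.89 for Pafah2. It was -1.56 for Map3k7cl, -1.11 for Tnfrsf22, -2.16 for Sema3e and -2.13 for Sdpr, which lay further below mock at the higher dose. Of the 33 proteasome subunits 7 were called, and for these it was 0.73 for Psma5, 0.46 for Psmc5, 0.57 for Psmd4, 0.40 for Adrm1, 0.41 for Psmd3, 0.57 for Psmd7 and 0.45 for Psmd11.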

How the results depend on the processing

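Of the 243 named genes with a called interaction, none reversed in any of the 20 alternatives, and 0 to 20 lost the call in each, the most with limma voom (20) and in the fit of 12 libraries (17). The count of genes above mock was 2858 with RLE scaling, 2741 by library size alone, 2536 without a filter, 2887 by DESeq2, 2695 by voom, 2638 with 12 libraries, 2912 without the number 2 libraries at 1.0 µM and 2537 to 3130 on leaving out each library. The count below was 3640 without the number 2 libraries and 2803 to 3273 on leaving out each. The share of calls that lay above mock ran from 44.4% to 52.8%, against 50.9%. The dose difference, counted by sign, depended more on the setting: larger interactions at 1.0 µM numbered 574 without a filter, 547 by voom and 589 to 1360 on leaving out each library, and smaller ones 361 by voom, 1761 without the number 2 libraries and 737 to 1445 on leaving out each. It could not be fitted with 12 libraries alone. The median log2 interaction of the 33 proteasome subunits was 1.20 to 1.40 on leaving out each library. The cause of these shifts was not tested. With the replicate number as a block, 3206 genes were above and 3182 below mock, with 1139 larger and 1051 smaller dose differences. Deviations of same-numbered libraries from their group means correlated over 0.1 in 14 of 18 library pairs: at 0.553 to 0.770 between the lines at 1.0 µM and 0.162 to 0.329 under vehicle, but at -0.141 to 0.251 between treatments. Within a treatment each library correlated best with its own number in the other line (12 of 12 cases), and over all group pairs in 24 of 36. The labels state no shared batch and not every pair passed 0.1, so the analysis without the block was kept, and whether the numbers mark a batch was not tested. The pairs that did not pass were all between treatments. The block uses the same terms for all treatments, so it cannot take up a shift present at 1.0 µM alone. The p-values given here treat same-numbered libraries as unrelated. Of list counts, 1712 of 1880 stayed within 1.5 times their value. Fragment counts limit genes near 1 CPM, and 3 libraries a group, spread most widely at 1.0 µM, limit the rest.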
